A study of Mus musculus with 47 samples.

Results

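The Hox genes code for homeodomain transcription factors that lie side by side in 4 clusters, A to D. A set of 38 Hox genes was looked up by symbol in the mouse annotation, and all 38 were found, out of 22367 protein-coding genes on the autosomes and on X and Y. Clusters A and B held 10 of these genes each, and clusters C and D held 9 each. A cluster was taken to run from the outermost ends of its member genes. This gave chr6:52112350-52210874 for A, chr11:96055630-96229570 for B, chr15:102751534-102867274 for C and chr2:74506367-74603200 for D, all in mm9. The spans of neighbouring members overlap in 6 pairs, because the annotated transcripts of Hoxa3 run across Hoxa4, Hoxa5 and Hoxa6 and into Hoxa2, those of Hoxd3 run across Hoxd4, and Hoxb7 and Hoxb8 share sequence. Peaks there could belong to either gene.

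ChIP-seq was carried out on livers of male and female mice aged 7 weeks. Floxed control mice were Ezh2 f/f. The E1/E2-KO mice were Ezh1-/-, EZH2f/f, AC+, where AC is the Alb-Cre transgene, so Ezh1 was missing from every cell and Ezh2 from hepatocytes alone. Other liver cells kept their Ezh2, and these lists come from whole liver. The labels list 47 samples, which are 4 livers for each group and mark with the exception of H3K4me1 in female E1/E2-KO mice, which had 3. In the following, control male, control female, KO male and KO female stand for the 4 groups, and values given without a name follow this order. Reads of the livers of a group were combined before peaks were called, so each mark had 1 list per group, 12 in all. The lists hold positions without counts or scores. The depth behind a list is therefore unknown, no value below has a replicate error and no difference was tested, and a site missing from a list was not called there, which is not the same as being unmarked.

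Hox genes set the identity of body regions along the head-to-tail axis of the embryo. Genes of the same number in different clusters are paralogs, low numbers lie at one end of each cluster and are used further towards the head, and high numbers lie at the other end. The clusters are the textbook targets of Polycomb repressive complex 2, whose catalytic subunit is Ezh1 or Ezh2. This complex trimethylates lysine 27 of histone H3 (H3K27me3), and the mark covers silent Hox clusters from end to end. The same lysine cannot carry an acetyl group (H3K27ac, a mark of active promoters and enhancers) and the methyl mark at once on the same histone tail. H3K4me1 marks enhancers, active or not, and the flanks of promoters. Adult hepatocytes come from gut endoderm and are not known as a site of broad Hox expression.

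H3K27me3 covered the Hox genes completely in both genotypes. All 38 genes lay entirely inside H3K27me3 regions in the control male, control female, KO male and KO female lists, so coverage was 100% for Hoxa2 to Hoxa13, Hoxb1 to Hoxb13, Hoxc4 to Hoxc13 and Hoxd1 to Hoxd13 in 4 of 4 lists. Among all protein-coding genes, coverage of 50% or more was found for 29.9% in control male, 29.8% in control female, 32.5% in KO male and 28.7% in KO female liver, and 12.3% were covered to 100% in all 4 lists. The median gene had 0% coverage in each list. No Hox gene differed in coverage by 25 percentage points between E1/E2-KO and control liver (0 of 38 in either sex), whereas across all genes 6.07% were lower and 9.86% higher by that much in male liver, and 7.59% lower and 6.29% higher in female liver. The 65 homeobox genes outside the clusters were like the Hox genes in this, with 0 of 65 lower or higher in either sex and 63 covered to 100% in all 4 lists. Coverage records whether a region was called and not how strong the signal was, so a weaker but still called mark would look the same.

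Each cluster sat in 1 unbroken H3K27me3 region in every list. The region over cluster A was 315.6 kb wide in control male, 312.4 kb in control female, 342.8 kb in KO male and 334.4 kb in KO female liver. For cluster B the widths were 310.8, 309.2, 280.0 and 272.0 kb in the same order. Cluster B was the only one of the 4 whose region was narrower in E1/E2-KO than in control liver of the same sex. For cluster C they were 367.6, 373.2, 436.8 and 432.8 kb, the widest of the 4 clusters in each list. For cluster D they were 208.8, 212.0, 234.8 and 213.6 kb, the narrowest of the 4 in each list. The 4 regions ranked between 15 and 282 by width in lists of 15603 to 19796 regions, and median region widths were 23.6 to 31.6 kb. Regions at least as wide as the smallest Hox region of the same list made up 1.68% of the control male, 1.07% of the control female, 1.45% of the KO male and 1.21% of the KO female list.

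**Figure D1:**
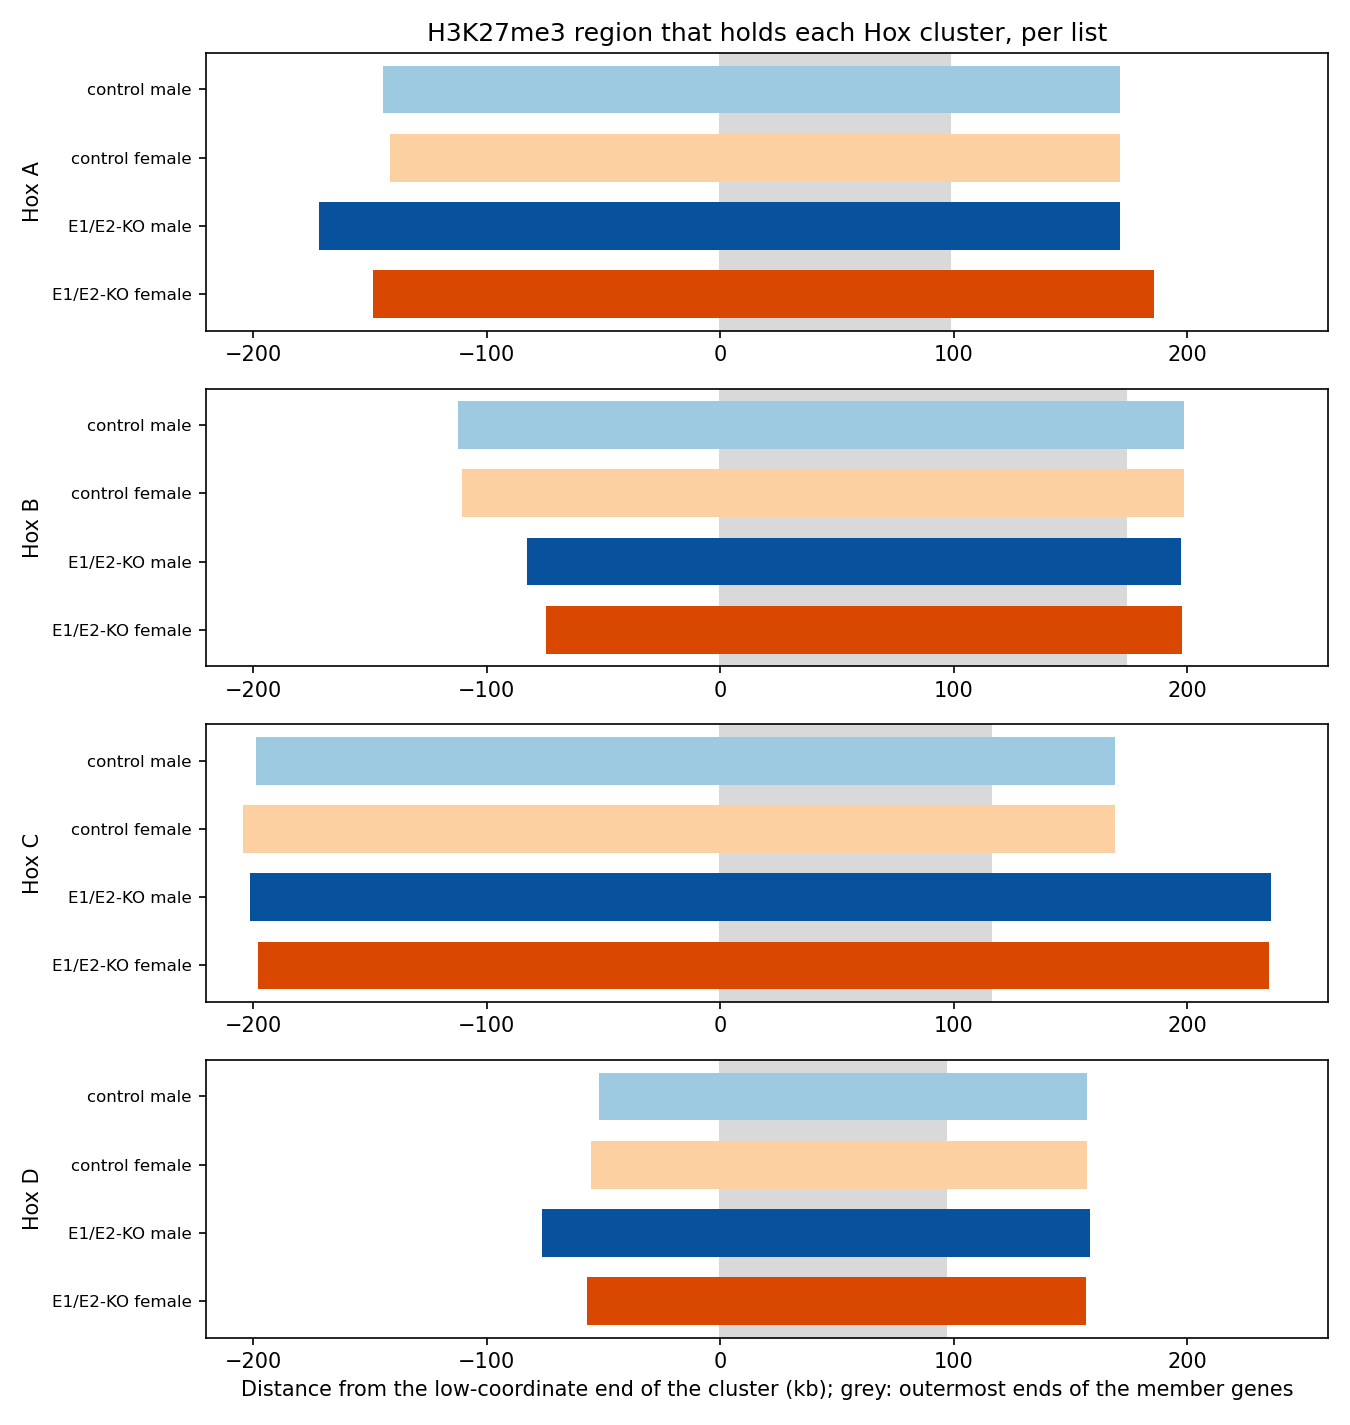
H3K27me3 region that holds each Hox cluster in each list, as distance in kb from the low-coordinate end of the cluster, with the span of the member genes in grey. The region spans the whole cluster in all 16 cases, the region over cluster C reaches 66.8 kb (male) and 66.0 kb (female) further at its high-coordinate end in E1/E2-KO than in control liver, and the low-coordinate border of the cluster B region shifts by -29.2 and -36.0 kb (negative is towards the cluster).

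As called, borders differed at one side of clusters B and C in both sexes. At the low-coordinate side of cluster B, the region began at 95943601 in control male, 95945201 in control female, 95972801 in KO male and 95981201 in KO female liver. The E1/E2-KO starts lay closer to Hoxb13 in both sexes, which is an outward shift of -29.2 kb in male and -36.0 kb in female liver. With regions closer than 10 kb joined, the shift was -29.2 kb in male and -0.8 kb in female liver, so the female difference depended on a gap. Calcoco2, a gene at 95960640-95973278 on the same chromosome that codes for a receptor of selective autophagy, was 100% covered in both control lists, 3.78% covered in KO male and 100% covered in KO female liver, where a separate region ended 4400 bp before the Hox region. Ttll6, a tubulin-modifying enzyme gene that lies nearer to Hoxb13, was 100% covered in all 4 lists. At the high-coordinate side of cluster B, beyond Hoxb1, the borders lay within 1.6 kb of each other (96252800 to 96254400).

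At the high-coordinate side of cluster C, beyond Hoxc4, the region ended at 102920400 in both control lists, at 102987200 in KO male and at 102986400 in KO female liver. The control lists had a gap of 5600 bp (male) and 4400 bp (female) there, followed by a further region of 61.6 kb in either list. In E1/E2-KO liver these stretches were called as 1 region, so apart from the gaps the added stretch was called in control liver as well. Smug1, the uracil-DNA glycosylase gene at that end, was partly covered in all 4 lists (83.1%, 57.3%, 74.5% and 57.3%). When regions closer together than 10 kb were joined, the widths for cluster C were 468.0, 519.2, 523.2 and 470.0 kb and no longer separated E1/E2-KO from control. At the low-coordinate side, beyond Hoxc13, the region began between 102547201 and 102553601, in or near Calcoco1, a gene for a transcriptional coactivator, which was covered to 20.7%, 55.8%, 76.6% and 23.3%. Gm17649, the gene next to Hoxc13, was 100% covered in all 4 lists. For cluster B the merged widths were 688.4, 685.6, 659.6 and 680.8 kb, since the region then ran into the one over Skap1.

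The other borders differed little or in 1 sex more than in the other. Beyond Hoxa13 the region of cluster A ended at 52283600 in control male, control female and KO male liver and at 52298000 in KO female liver. A further region followed within 3.2 kb in the first 3 of these lists, and the joined ends were 52298000, 52298400, 52296000 and 52298000. It took in Evx1, an even-skipped homeobox gene next to the cluster, which was 100% covered in all 4 lists. On the low-coordinate side it began 27.2 kb further out in KO male and 7.6 kb further out in KO female than in control liver, towards Skap2, a gene for an adaptor protein of blood cells. The region over cluster D took in Evx2, also 100% covered in all 4 lists, and began 24.4 kb further out in KO male and 2.0 kb further out in KO female liver. Its high-coordinate border lay between 74662800 and 74664800 in all 4 lists, at the edge of Mtx2, a mitochondrial import gene with 0% coverage in both control lists and KO female liver and 1.79% in KO male liver.

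H3K27ac peaks inside the fully H3K27me3-covered clusters were more numerous in both E1/E2-KO lists than in either control list. The control male list held 4 such peaks, control female 13, KO male 31 and KO female 30. The numbers for the whole lists were 29359, 49702, 55930 and 51253 peaks, so the E1/E2-KO to control ratio was 7.75 in the clusters and 1.91 in the whole list for male liver, and 2.31 in the clusters and 1.03 in the whole list for female liver. Per 1000 peaks of the list, the clusters took 0.136, 0.262, 0.554 and 0.585 peaks. All of these peaks lay inside an H3K27me3 region of their own group over their whole length. H3K27me3 regions of 200 kb or more, which include the Hox regions, held 0.337, 1.12, 1.75 and 1.15 H3K27ac peaks per 100 kb, compared with 0.825, 2.68, 6.39 and 6.19 per 100 kb in the Hox clusters. When every list was reduced to its 29359 widest peaks, which is the length of the shortest, the clusters held 4, 4, 13 and 9 peaks.

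**Figure D2:**
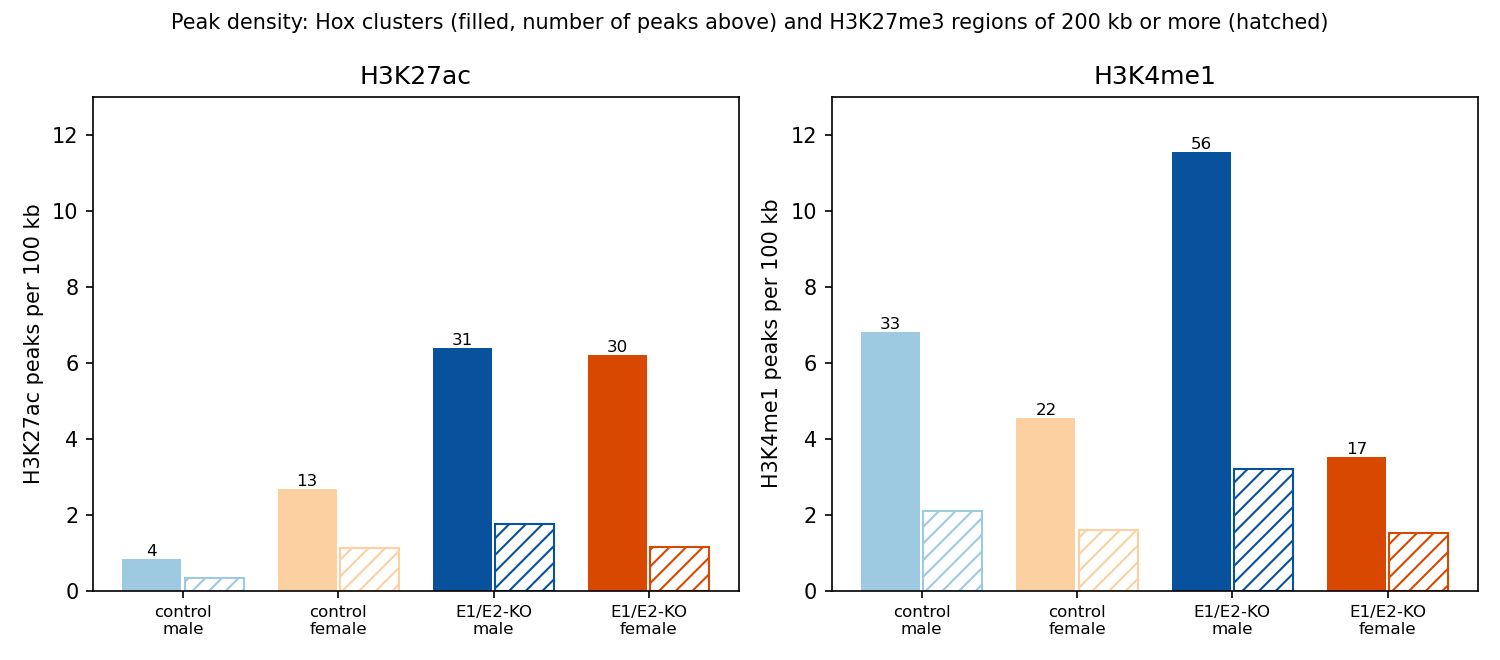
Peaks per 100 kb in the 4 Hox clusters (filled bars, number of peaks above each bar) and in all H3K27me3 regions of 200 kb or more of the same group (hatched bars), for H3K27ac (left) and H3K4me1 (right). H3K27ac density in the clusters is above 6 per 100 kb in both E1/E2-KO lists and at most 2.68 in the control lists, and H3K4me1 density is highest in KO male liver (11.5) and lowest in KO female liver (3.50).

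The difference was seen in each cluster in male liver, where A went from 2 to 11 peaks, B from 2 to 8, C from 0 to 7 and D from 0 to 5 between control and E1/E2-KO. In female liver A had 4 and 10, B had 8 and 10, C had 1 and 5, and D had 0 and 5. Cluster D had no H3K27ac peak in either control list and 5 in each E1/E2-KO list. Of the E1/E2-KO peaks in the clusters, 29 of 31 in male liver (93.5%) and 20 of 30 in female liver (66.7%) overlapped no peak of the control list of the same sex. Over the whole lists these shares were 54.5% and 24.9%. The control male list held only 4 cluster peaks, so few of the 31 KO male peaks could have a counterpart. The male share therefore largely restates the counts. In the other direction, 2 of 4 control male (50%, with 9.66% over the whole list) and 4 of 13 control female peaks (30.8%, with 27.9%) overlapped no peak of the E1/E2-KO list.

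Peaks of the 4 lists merged into 43 H3K27ac sites, of which 21 were called in 1 list only. A further 14 sites were in 2 lists, 6 in 3 lists and 2 in all 4 lists. Both E1/E2-KO lists and no control list shared 10 sites, and no site was shared by both control lists alone. Sites were not counted in this way over the whole lists, so it is unknown whether these numbers are particular to the clusters. These 10 sites and the 8 found in 3 or 4 lists are described next.

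In cluster A, the site in all 4 lists lay at chr6:52140671-52141724 over Hoxa4, a gene of the central paralog groups, with its middle 504 bp downstream of the start. Its peaks summed to 404 bp in control male, 554 bp in control female, 996 bp in KO male and 807 bp in KO female liver. The next site was at Hoxa5, which acts in lung and respiratory tract development, at chr6:52152809-52154344, with no peak in control male liver and 1163, 1536 and 1294 bp in the other 3 lists. The site at chr6:52120122-52120442, on the last coding exon of Hoxa3, was also missing from control male liver alone. Sites in both E1/E2-KO lists and no control list were found at the far upstream start of Hoxa3 between Hoxa6 and Hoxa7 (chr6:52162884-52163334), on the first coding exon of Hoxa10, a gene known for its part in the uterus (chr6:52183873-52184203), and between Hoxa11 and Hoxa13, genes known from limb patterning (chr6:52202487-52203525).

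In cluster B, the site in all 4 lists was on the first coding exon of Hoxb5 at chr11:96164920-96165587, with peaks of 462, 286, 367 and 668 bp. The sites on the first coding exon of Hoxb7 (chr11:96148057-96148600), on that of Hoxb4, a gene known from blood stem cells (chr11:96180056-96180555), and near a start of Hoxb3 (chr11:96202830-96203607) were in control female and both E1/E2-KO lists and not in control male liver. The Hoxb2 site at chr11:96214006-96214911, which reaches its last coding exon, was in both E1/E2-KO lists and no control list, with 890 bp in male and 511 bp in female liver. The peaks of cluster B therefore lay from Hoxb7 to Hoxb2, apart from 1 peak of KO male liver 5542 bp downstream of the Hoxb13 start. Hoxb8, Hoxb9, Hoxb13 and Hoxb1 had no H3K27ac peak in their spans in any list.

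In cluster C, a site in an intron of Hoxc6 at -1013 bp from the nearest start (chr15:102829323-102830570), was in control female and both E1/E2-KO lists, with 376, 1239 and 890 bp. Sites in both E1/E2-KO lists and no control list lay at that Hoxc6 start (chr15:102830937-102831345), on the first coding exon of Hoxc9 (chr15:102812162-102812698) and in an intron of Hoxc4 (chr15:102851768-102852034). Hoxc11, Hoxc12 and Hoxc13, at the end of the cluster used nearest to the tail, had no H3K27ac peak in any list. In cluster D, 3 sites were in both E1/E2-KO lists and no control list, over Hoxd9 (chr2:74535818-74536900, 802 and 759 bp), at a start of Hoxd3 (chr2:74549983-74550504, 522 and 395 bp) and between Hoxd13 and Hoxd12 (chr2:74510816-74511199, 354 and 232 bp). Hoxd8 had peaks in both E1/E2-KO lists, which did not overlap each other.

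**Figure D3:**
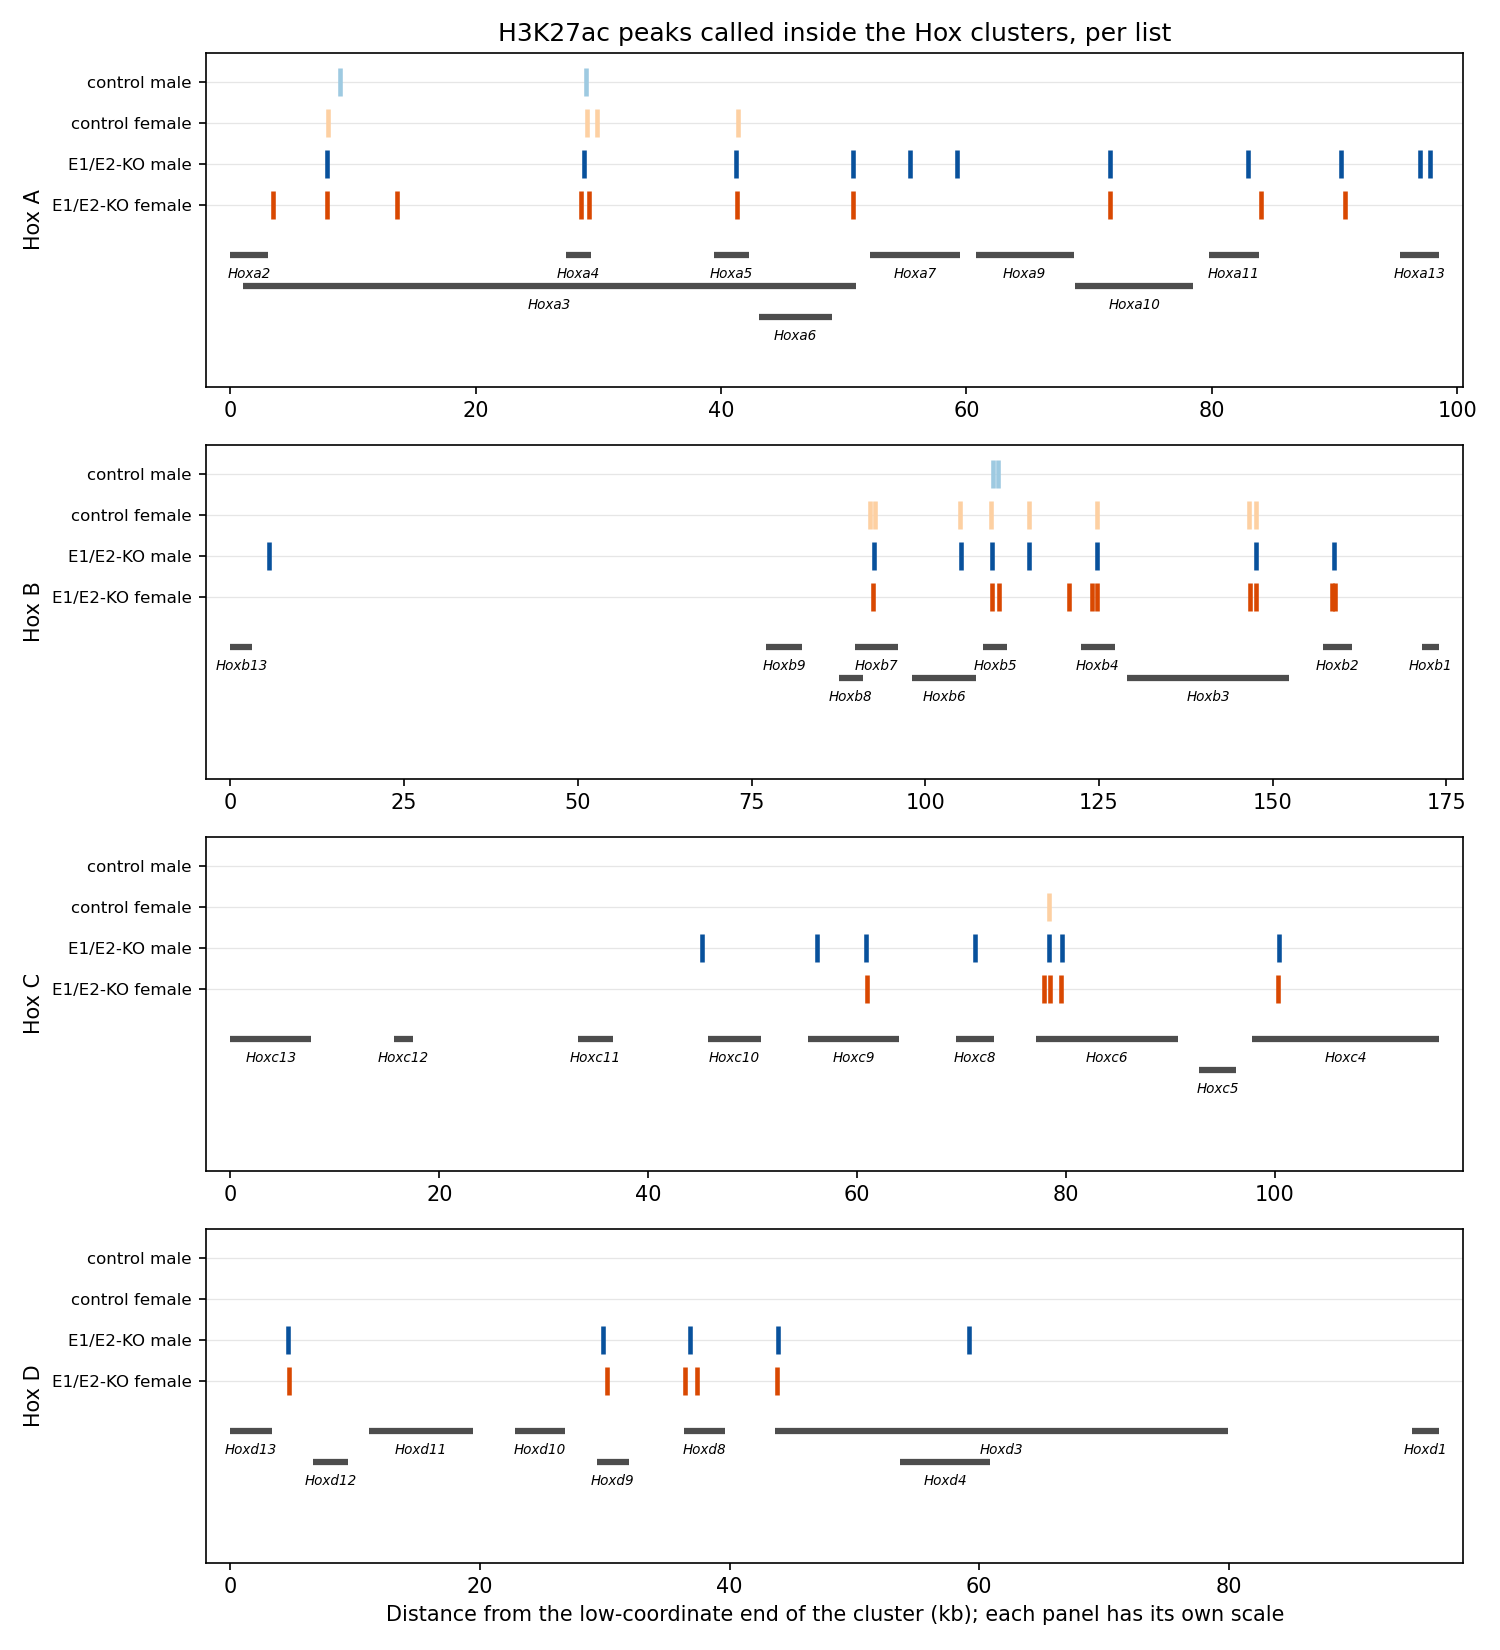
H3K27ac peaks in clusters A to D by list, as distance in kb from the low-coordinate end of the cluster, with the member genes drawn as bars below. Control lists hold 4 (male) and 13 (female) peaks and none in cluster D, and the E1/E2-KO lists hold 31 and 30 peaks, many at the same places in both sexes.

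To show what the recurrent sites are made of, the reference sequence of mm9 (NCBIM37, plus strand) is given for the central 200 bp of the stretch shared by both E1/E2-KO peaks at 6 sites, with CpG dinucleotides in capitals. They come from the sites in all 4 lists and from 4 of the sites in both E1/E2-KO lists alone, at chr6:52140857-52141056 (Hoxa4), chr11:96165199-96165398 (Hoxb5), chr6:52202985-52203184 (between Hoxa11 and Hoxa13), chr15:102812371-102812570 (Hoxc9), chr2:74510969-74511168 (between Hoxd13 and Hoxd12) and chr2:74536281-74536480 (Hoxd9).
Hoxa4 intron: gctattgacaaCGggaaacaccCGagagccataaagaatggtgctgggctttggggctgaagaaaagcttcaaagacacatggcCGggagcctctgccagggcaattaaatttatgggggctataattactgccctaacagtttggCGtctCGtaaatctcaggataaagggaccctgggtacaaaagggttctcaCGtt
Hoxb5 first coding exon: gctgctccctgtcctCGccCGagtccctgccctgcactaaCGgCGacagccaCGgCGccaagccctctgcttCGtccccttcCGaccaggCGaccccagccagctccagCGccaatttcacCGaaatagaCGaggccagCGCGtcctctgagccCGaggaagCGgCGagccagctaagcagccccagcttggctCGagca
Hoxa11 to Hoxa13: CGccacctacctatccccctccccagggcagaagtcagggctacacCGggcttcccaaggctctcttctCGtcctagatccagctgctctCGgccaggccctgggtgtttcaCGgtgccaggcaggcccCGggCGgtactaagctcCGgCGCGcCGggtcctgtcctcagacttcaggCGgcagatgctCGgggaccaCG
Hoxc9 first coding exon: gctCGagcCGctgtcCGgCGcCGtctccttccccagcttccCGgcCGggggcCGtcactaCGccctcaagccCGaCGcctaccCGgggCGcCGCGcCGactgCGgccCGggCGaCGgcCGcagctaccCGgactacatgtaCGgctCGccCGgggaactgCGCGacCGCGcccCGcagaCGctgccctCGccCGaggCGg
Hoxd13 to Hoxd12: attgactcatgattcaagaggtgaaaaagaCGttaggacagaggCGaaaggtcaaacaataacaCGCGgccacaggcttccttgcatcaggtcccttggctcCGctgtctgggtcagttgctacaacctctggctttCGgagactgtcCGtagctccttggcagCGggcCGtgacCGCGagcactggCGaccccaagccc
Hoxd9 first coding exon: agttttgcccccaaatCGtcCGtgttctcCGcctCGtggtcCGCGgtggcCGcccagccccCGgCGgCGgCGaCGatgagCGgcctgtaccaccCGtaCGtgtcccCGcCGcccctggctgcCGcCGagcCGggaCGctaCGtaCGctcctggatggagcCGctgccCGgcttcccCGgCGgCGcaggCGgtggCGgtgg
The Hoxa4 window lies in the part of its site that was called in the E1/E2-KO lists alone, since the control peaks began at 52141159 (male) and 52141171 (female). The Hoxc9 window held 34 CpG and the Hoxd9 window 30, compared with 18 for Hoxb5, 14 between Hoxa11 and Hoxa13, 12 between Hoxd13 and Hoxd12 and 6 for Hoxa4.

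CpG content was high at most of these sites, with the Hoxc4 intron (3 CpG) as the lowest. Over the 18 sites found in both E1/E2-KO lists, the central 200 bp had a median GC content of 65.8% and a median CpG observed over expected ratio of 0.629. The same measures over the centres of all H3K27ac peaks were 50.5% and 0.251 in KO male and 51.5% and 0.265 in KO female liver. The few cluster peaks of control liver had similar GC content, with medians of 65.8% in control male (4 peaks) and 66.0% in control female liver (13 peaks). The median CpG ratios of these peaks were 0.520 and 0.757. Promoters were taken from RefSeq (GRCm38.p6, 250 bases before to 50 after the start), where 22 of the 38 Hox genes matched. Their median CpG ratio was 0.594, compared with 0.388 over 27018 promoters. It was 0.596 in the 11 with an H3K27ac peak at a start in an E1/E2-KO list and 0.593 in the 11 without. A CTCF-like motif, CCANNAG followed directly by NNGGC, was searched on both strands and was in 0 of the 18 site windows. Among cluster peak centres it was in 0 of 4 in control male, 1 of 13 in control female, 2 of 31 in KO male and 0 of 30 in KO female liver. It was in 1.12% of all peak centres of KO male liver and in 2.41% of promoters. The letters TGATTNAT, the core recognised by PBX and HOX proteins together, were in 0 of the 18 windows, in 1.80% of those peak centres and in 3.36% of promoters, with 1 Hox promoter (Hoxa2) among them.

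Several of these sites coincided with the first coding exon, which is long in Hox genes (median 541 bp, compared with 108 bp over all genes with more than 1 coding exon) and codes for the part of the protein before the homeodomain. An H3K27ac peak overlapped it in 2 of 38 Hox genes in control male, 6 in control female, 11 in KO male and 9 in KO female liver. These are 5.26%, 15.8%, 28.9% and 23.7%, compared with 31.7%, 38.2%, 38.6% and 37.4% over all genes with more than 1 coding exon. In the 2070 other such genes that were 100% covered by H3K27me3 in all 4 lists, the shares were 3.77%, 9.66%, 12.1% and 11%.

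At transcription starts, taken within 1 kb of any annotated start, H3K27ac peaks were called at 1 of 38 Hox genes in control male (2.63%), 5 in control female (13.2%), 16 in KO male (42.1%) and 11 in KO female liver (28.9%). The shares over all genes were 47.5%, 53.8%, 54.9% and 54.5%. At 1 kb the Hox genes were thus below the general share in every list, and furthest below it in control male liver. Within 3 kb of a start the counts were 3, 9, 25 and 19 of 38, compared with 49.9%, 56.5%, 58.0% and 57.5% over all genes, so with the wider window the KO male count lay above the general share. Hoxa4 was the 1 gene with a peak in all 4 lists. Hoxa5, Hoxb3 and Hoxc6 had one in control female and both E1/E2-KO lists. Hoxa3, Hoxa10, Hoxa11, Hoxd3, Hoxd8 and Hoxd9 had one in both E1/E2-KO lists and no control list. Hoxb6 had one in control female and KO male liver. Hoxa7, Hoxa13, Hoxc9, Hoxc10 and Hoxd4 had one in KO male liver alone, and Hoxa2 in KO female liver alone.

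Compared with control liver of the same sex, 15 of 38 Hox genes had an H3K27ac peak at a start in KO male liver alone (39.5%, with 7.71% over all genes), and 7 of 38 in KO female liver alone (18.4%, with 2.52% over all genes). The reverse, a peak in control and not in E1/E2-KO liver, was found for 0 of 38 in male liver (0.308% over all genes) and for 1 of 38, Hoxb6, in female liver (1.85% over all genes). Among 2712 other genes 100% covered by H3K27me3 in all 4 lists, 14.7% had the peak in KO male liver alone and 6.53% in KO female liver alone. Among 65 homeobox genes outside the clusters, such as those of the Nkx, Lhx, Dlx and Irx families, the shares were 27.7% and 13.8%. All 65 were at least 50% covered by H3K27me3 in each list, and 4, 6, 22 and 15 of them had H3K27ac at a start in the 4 lists. For the 79 ribosomal protein genes, used as an active reference, the shares were 0% and 1.27%, and 70, 70, 70 and 71 had the peak at a start.

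By paralog number, H3K27ac at a start was called as follows. None of the 16 members of paralog groups 9 to 13 had H3K27ac at a start in either control list. The control male and control female shares were 2.63% and 13.2% over all 38 Hox genes and 47.5% and 53.8% over all genes. In groups 9 to 13, 6 had it in KO male and 3 in KO female liver. Of the 15 members of groups 4 to 8, the numbers were 1, 4, 7 and 4 in control male, control female, KO male and KO female liver. Of the 7 members of groups 1 to 3 they were 0, 1, 3 and 4. The shares were 6.67%, 26.7%, 46.7% and 26.7% in groups 4 to 8 and 0%, 14.3%, 42.9% and 57.1% in groups 1 to 3. These classes go by gene number and not by the place of the peak. The named site at a start of Hoxa3 lay between Hoxa6 and Hoxa7, and that of Hoxd3 between Hoxd8 and Hoxd4. The shares in groups 9 to 13 in the E1/E2-KO lists (37.5% and 18.8%) lay below those of all 38 Hox genes (42.1% and 28.9%) and of all genes (54.9% and 54.5%). Of the few cluster peaks called in control liver, 3 of the 4 in control male and 10 of the 13 in control female liver lay nearest to a start of groups 4 to 8. In KO male and KO female liver these numbers were 15 of 31 and 15 of 30. Groups 4 to 8 hold 15 of the 38 genes.

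**Figure D4:**
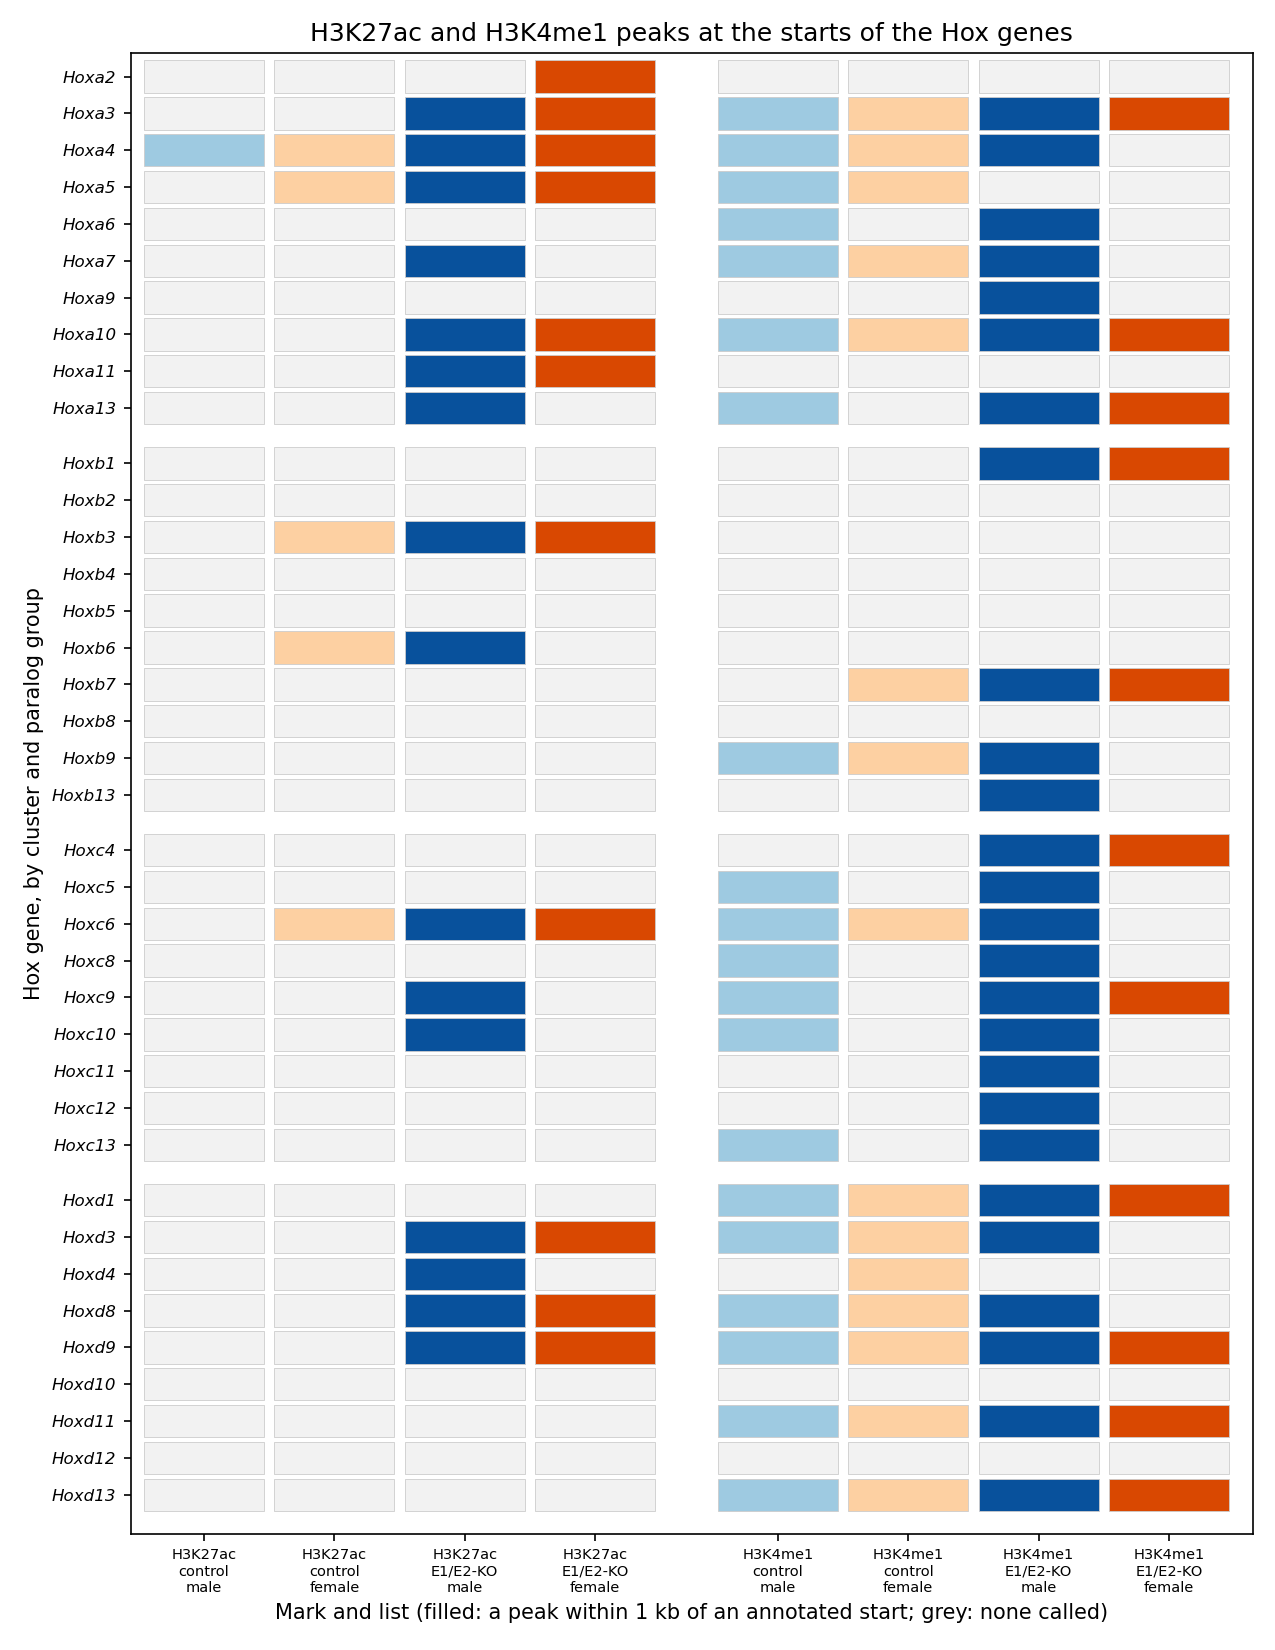
H3K27ac (left 4 columns) and H3K4me1 (right 4 columns) at the starts of the 38 Hox genes, ordered by cluster and paralog group, where a filled cell is a peak within 1 kb of an annotated start in that list. H3K27ac fills 1, 5, 16 and 11 cells in the 4 lists, and H3K4me1 fills 20, 15, 26 and 11.

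H3K4me1 was already present in the clusters of control liver and did not follow the same order. For this mark the clusters held 33 peaks (control male), 22 (control female), 56 (KO male) and 17 (KO female). The whole lists held 69797, 54798, 67913 and 51417 peaks. The number was thus higher in E1/E2-KO than in control liver for males (ratio 1.70, with 0.973 for the whole list). It was lower for females (ratio 0.773, with 0.938 for the whole list). H3K27me3 regions of 200 kb or more, which include the Hox regions, held 2.09, 1.60, 3.19 and 1.51 H3K4me1 peaks per 100 kb. The Hox clusters held 6.80, 4.54, 11.5 and 3.50 per 100 kb. The direction in each sex was thus the same in these wide regions. In male liver cluster B differed most, with 3 peaks in control and 17 in KO, whereas in female liver it had 3 and 2 and differed least. Cluster A had 11, 8, 12 and 5 peaks, cluster C had 8, 2, 14 and 4, and cluster D had 11, 9, 13 and 6. Of the E1/E2-KO peaks, 33 of 56 in male (58.9%, with 29.5% over the whole list) and 7 of 17 in female liver (41.2%, with 32.0%) overlapped no control peak, and of the control peaks 10 of 33 in male (30.3%, with 31.8%) and 12 of 22 in female liver (54.5%, with 37.2%) overlapped no E1/E2-KO peak. The KO female value rests on 3 livers. With the 51417 widest peaks of each list, the numbers were 26, 20, 37 and 17 in the order of the groups.

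Merging gave 69 H3K4me1 sites, of which 38 were in 1 list, 13 in 2, 8 in 3 and 10 in all 4 lists. The 10 constant sites lay at Hoxd13 (chr2:74506246-74507121), between Hoxd13 and Hoxd12 (chr2:74510629-74511250), at Hoxd11 (chr2:74520124-74521057), Hoxd9 (chr2:74535639-74536820) and Hoxd1 (chr2:74600680-74601761), at 2 starts of Hoxa3 (chr6:52133141-52133739 and chr6:52162391-52163280), at Hoxa10 (chr6:52190044-52191037), between Hoxa11 and Hoxa13 (chr6:52202967-52203836) and at Hoxc9 (chr15:102811891-102812774). Cluster D held 5 of them, cluster A held 4, cluster C held 1 and cluster B none. A further 8 sites were in 3 lists, at Hoxa4 (chr6:52141970-52142513), Hoxb9 (chr11:96132780-96133949), Hoxc6 (chr15:102829347-102830417), Hoxd8 (chr2:74543554-74544119) and Hoxd3 (chr2:74549925-74550557) without KO female liver, at Hoxa13 (chr6:52209637-52210360) and downstream of Hoxd3 (chr2:74587454-74588132) without control female liver, and at Hoxb7 (chr11:96145689-96146091) without control male liver. Both E1/E2-KO lists and no control list shared 2 sites, at Hoxb1, a gene of hindbrain patterning (chr11:96227279-96228253), and in an intron of Hoxc4 (chr15:102857466-102858304). Both control lists and no E1/E2-KO list shared 3. As for H3K27ac, sites were not counted in this way over the whole lists.

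**Figure D5:**
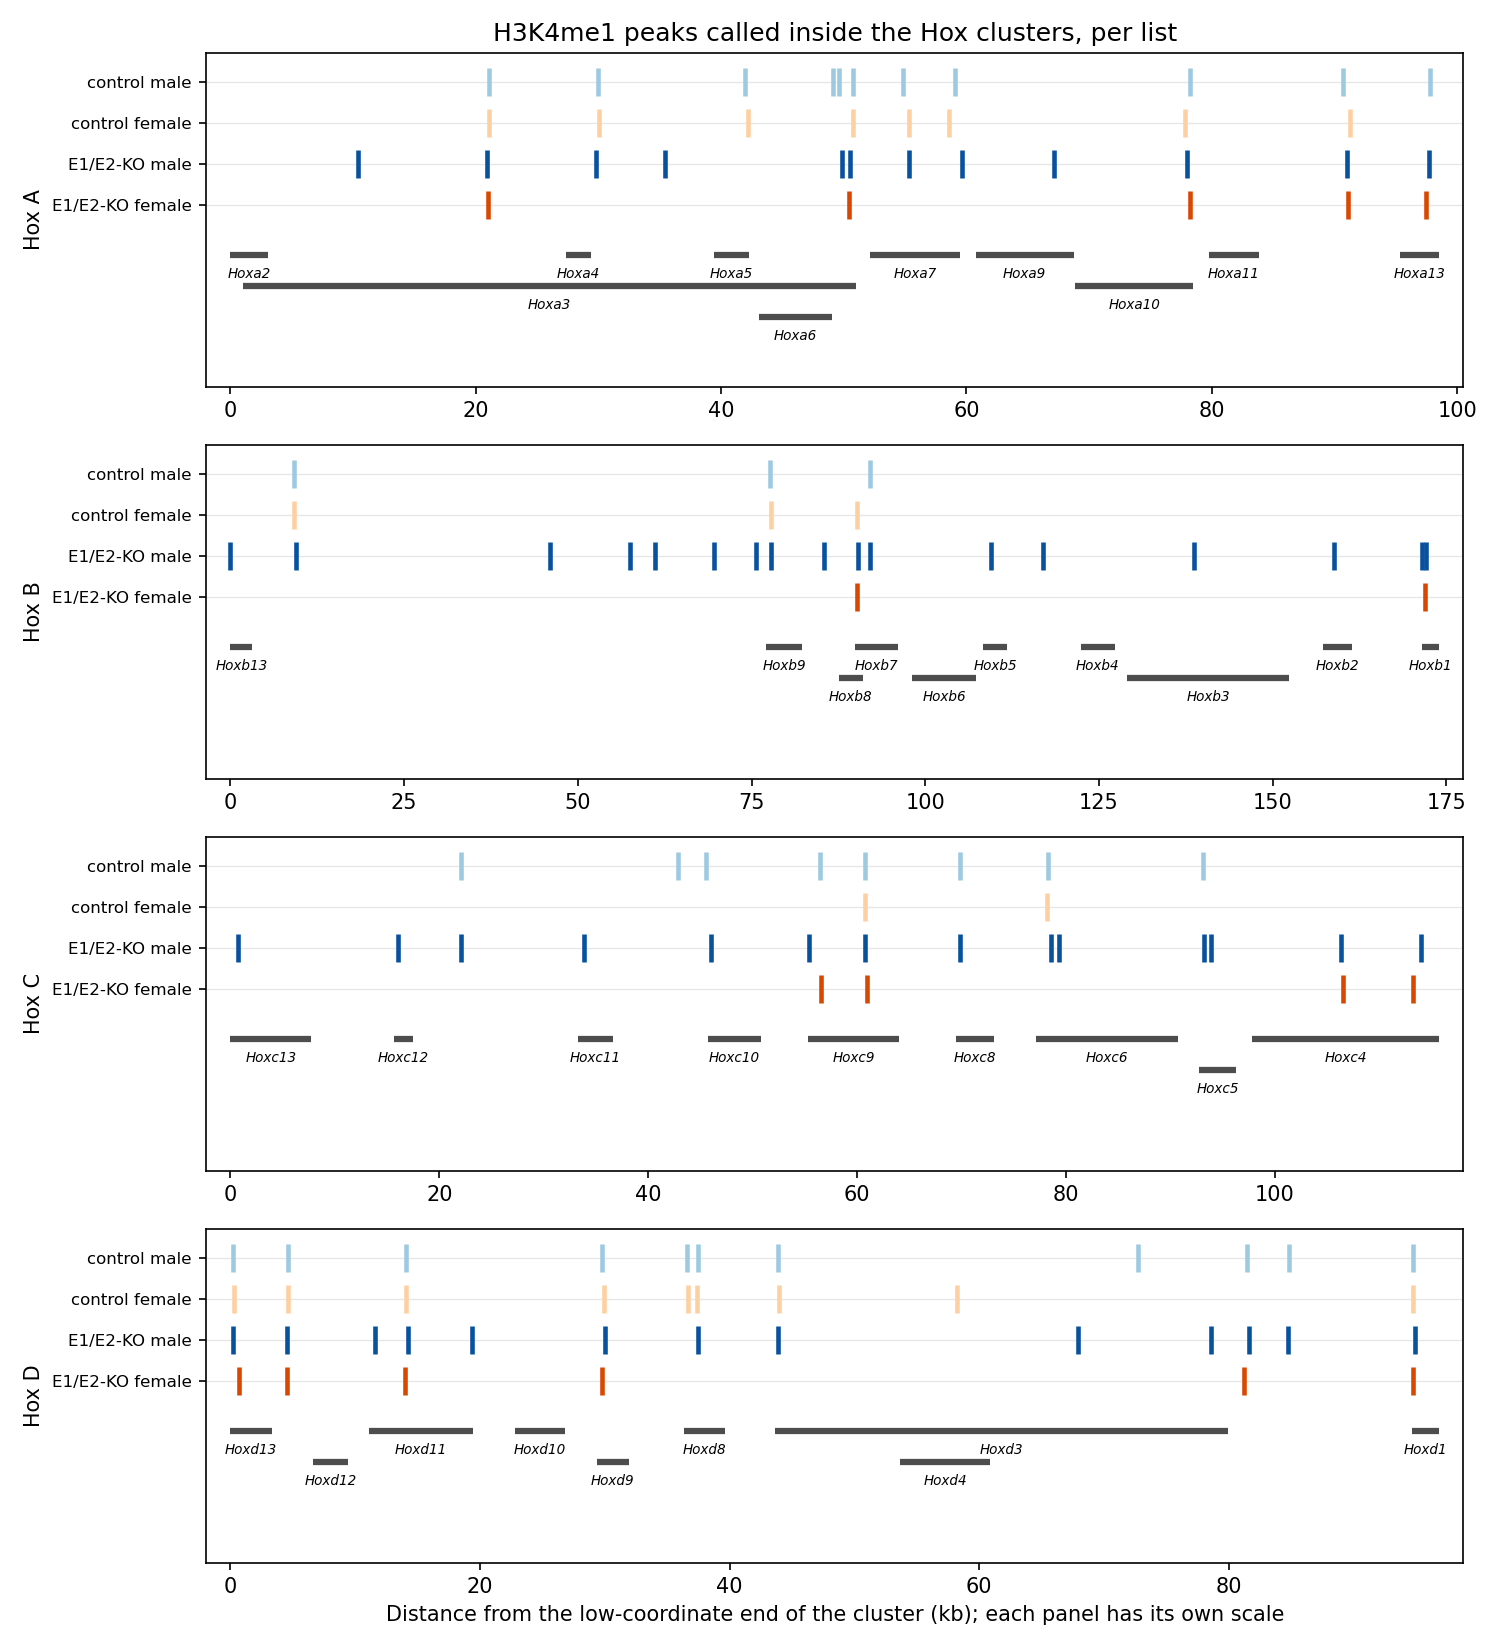
H3K4me1 peaks in clusters A to D by list, drawn as in the map of H3K27ac peaks. The lists hold 33, 22, 56 and 17 peaks from top to bottom, and the KO male list alone has a series of peaks upstream of Hoxb9.

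H3K4me1 peaks were called at the starts of 20 of 38 Hox genes in control male (52.6%), 15 in control female (39.5%), 26 in KO male (68.4%) and 11 in KO female liver (28.9%), compared with 53.0%, 46.1%, 52.2% and 42.3% over all genes. Hoxa3, Hoxa10, Hoxd1, Hoxd9, Hoxd11 and Hoxd13 had a peak at a start in all 4 lists. Hoxa4, Hoxa7, Hoxb9, Hoxc6, Hoxd3 and Hoxd8 had one in all lists but KO female, Hoxa13 and Hoxc9 in all but control female, and Hoxb7 in all but control male liver. Hoxa6, Hoxc5, Hoxc8, Hoxc10 and Hoxc13 had one in both male lists, Hoxa5 in both control lists, and Hoxb1 and Hoxc4 in both E1/E2-KO lists. Hoxa9, Hoxb13, Hoxc11 and Hoxc12 had one in KO male liver alone, and Hoxd4 in control female liver alone. Relative to control liver, 7 of 38 had a peak in KO male liver alone (18.4%, 6.08% over all genes) and 1 had it in control alone (2.63%, 6.91% over all genes). In female liver, 4 had it in E1/E2-KO alone (10.5%, 5.63% over all genes) and 8 in control alone (21.1%, 9.39% over all genes). The shares with a peak in E1/E2-KO liver alone were 13.5% (male) and 8.04% (female) in the 2712 other fully covered genes and 24.6% and 7.69% in the 65 homeobox genes outside the clusters, and those with one in control alone were 1.92% and 5.83%, and 7.69% and 13.8%. Hoxb2, Hoxb4, Hoxb5, Hoxb8, Hoxd10 and Hoxd12 had neither mark at a start in any list, although Hoxb2, Hoxb4 and Hoxb5 had H3K27ac peaks further into the gene.

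Of the 10 sites with H3K27ac in both E1/E2-KO lists and no control list, 6 overlapped an H3K4me1 peak in both control lists. These were the far upstream start of Hoxa3, the stretch between Hoxa11 and Hoxa13, Hoxc9, the stretch between Hoxd13 and Hoxd12, Hoxd9 and Hoxd3. In control liver these places thus carried H3K4me1 and lay in an H3K27me3 region without a called H3K27ac peak. The Hoxb2 site and the Hoxc6 start overlapped an H3K4me1 peak in KO male liver alone, and the Hoxa10 and Hoxc4 sites in no list. Over all 43 H3K27ac sites, which include the 10 above, 12 overlapped an H3K4me1 peak in both control lists. Neither share was computed over the whole lists, so neither has a general value beside it. Within a list, 0 of 4 cluster H3K27ac peaks overlapped an H3K4me1 peak in control male, 3 of 13 (23.1%) in control female, 12 of 31 (38.7%) in KO male and 5 of 30 (16.7%) in KO female liver. Over all H3K27ac peaks of these lists the shares were 63.7%, 49.3%, 55.6% and 40.4%.

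Between the sexes, H3K27ac peaks in the clusters overlapped only in part in either genotype. In control liver 2 of 4 male peaks (50%, with 10.6% over the whole list) had no female counterpart and 11 of 13 female peaks (84.6%, with 50.9%) had no male counterpart. In E1/E2-KO liver these numbers were 13 of 31 (41.9%, with 30.6%) and 9 of 30 (30.0%, with 21.4%). For H3K4me1 they were 16 of 33 (48.5%, with 39.0%) and 5 of 22 (22.7%, with 21.1%) in control, and 43 of 56 (76.8%, with 43.8%) and 4 of 17 (23.5%, with 24.0%) in E1/E2-KO liver. The cluster counts of the sexes were unequal for control H3K27ac and for E1/E2-KO H3K4me1. The high shares of 84.6% and 76.8% there follow in large part from these counts. The control male H3K27ac list is the shortest of its mark, and with every list reduced to its 29359 widest peaks the clusters held 4 peaks in either control sex, 13 in KO male and 9 in KO female liver.

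The clusters also hold 6 miRNA genes, which were chosen after the clusters had been examined. Mir10a, Mir10b, Mir196a-1, Mir196a-2, Mir196b and Mir615 target messengers of Hox and other genes, and each was 100% covered by H3K27me3 in all 4 lists. Mir10a, inside the annotated span of Hoxb4 at chr11:96178479-96178588, lay 12266 bp from the nearest H3K27ac peak in control male, 1525 bp in control female, 1467 bp in KO male and 941 bp in KO female liver. Mir10b, inside the overlapping spans of Hoxd3 and Hoxd4 at chr2:74564127-74564194, lay 99429, 99371, 1165 and 13743 bp from one. The distances were 117487, 25861, 3742 and 8450 bp for Mir196a-2 and 38517, 25798, 3708 and 3730 bp for Mir196b. They were 75936, 15222, 6357 and 6335 bp for Mir615. For Mir196a-1 they were 38531, 20910, 21527 and 21477 bp, so KO female liver was no nearer than control female liver. These distances rest on the cluster peaks already counted above and are no separate result.

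Genes that act with or on the Hox genes varied in their marks. Of the 9 TALE cofactors, which bind DNA together with Hox proteins, 5, 4, 3 and 3 were at least 50% covered by H3K27me3 in control male, control female, KO male and KO female liver, and 6, 8, 8 and 8 had H3K27ac at a start. Coverage of Meis2 was 78.1%, 69.2%, 28.8% and 7.09% in that order, that of Pbx3 was 72.2%, 40.2%, 24.2% and 29.9%, and that of Pbx4 was 82.2%, 57.6%, 93.1% and 98.3%. Meis3 and Pknox2 were covered to 98.6% or more in all 4 lists. Of the 5 Cdx and Evx genes, which act upstream of or beside Hox clusters, Cdx1, Cdx2, Evx1 and Evx2 were 100% covered in all lists, and Cdx4 on X was covered to 0% in both male and 100% in both female lists. All 23 Polycomb genes had H3K27ac at a start in all 4 lists, Ezh1 and Ezh2 included, so these lists do not by themselves show the loss of the enzymes. Ezh1 was covered by H3K27me3 to 1.63%, 0%, 53.1% and 53.1%. Of 10 genes for the opposing trithorax complexes and H3K27 demethylases, none was covered to 50% in any list.

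The liver label was checked with marker genes. H3K27ac was at a start of 4, 6, 6 and 6 of 8 hepatocyte markers in the 4 lists. Alb, Apob, Ttr and Hnf4a were marked in all lists, Apoa1 and Cps1 in all but control male, and Serpina1a and Tat in none. The shares over all genes were 47.5%, 53.8%, 54.9% and 54.5%. The check was therefore weak, most of all in control male liver. Of the markers of other liver cells, 2, 3, 4 and 4 of 5 for sinusoidal endothelium and 1, 2, 1 and 2 of 4 for stellate cells were marked, and 0 of 5 for Kupffer cells, 0 of 3 for cholangiocytes and 0 of 3 for lymphocytes in every list. H3K27me3 covered 0, 0, 3 and 3 of the 8 hepatocyte markers and 4, 4, 2 and 2 of the 5 endothelial markers to 50% or more. The hepatocyte genes among them were Apoa1, Hnf4a and Tat, and Stab2 and Cdh5 were the endothelial genes covered in the control lists alone. The number of endothelial markers with H3K27ac was higher in E1/E2-KO than in control liver, as was the number of acetylated Hox starts. For hepatocyte markers with H3K27ac it went from 4 to 6 in male liver and stayed at 6 in female liver. The part of either in the Hox values was not tested. Hepatocytes and other cells cannot be told apart in whole-liver lists, nor can it be told whether H3K27me3 and H3K27ac called at the same site were on the same chromosomes.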

How the data were processed

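Frozen livers of 7 week old mice were used by the authors for ChIP-seq, 47 samples in all. Their steps were pooling of the reads of each group's livers and then alignment to mm9 (Bowtie 2, version 2.3.2). SICER (version 1.1) was used for H3K27me3 with windows of 400 bp and gaps of up to 2400 bp. MACS2 (version 2.1.1) was used for the other marks. The 12 lists deposited by the authors give the start and end position of each peak and no count, score or fold, so depth is unknown and no test was made. Per the labels, H3K4me1 in KO female liver had 3 livers and all other groups had 4, whereas the methods give 4 throughout. These lists give places where signal was called, and peak number can follow read depth.

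Starts were read as counted from 0 and printed from 1, and 1 base was added to SICER ends to reach the window edge. No peak ran past a chromosome end of NCBIM37, which is mm9. Gene spans, starts and exons came from GENCODE M1, and members and gene lists were matched by symbol or through RefSeq identifiers and synonyms. Results for 1 neighbouring gene are not reported here. Overlap was at least 1 bp, a gene counted as covered from 50% and as different from 25 percentage points, and a start window was 1 kb to either side. All members are accounted for, and values per list are given for those with H3K27ac or H3K4me1 at a start. Sites in 3 or 4 lists, or in both E1/E2-KO lists and no control list, are named by position. The next protein-coding gene on each side of a cluster is named, other than the gene not reported here, and Calcoco1, Calcoco2 and Skap2, at the ends of regions, were chosen after their values were seen. Members and lists were chosen with earlier results of these data known. Programs were Python 3.11.15 and matplotlib 3.10.9, and the interval functions were tested on simulated data. Alternatives were other coverage limits and gene spans, clusters extended by 10 kb, merged peaks or regions, wider start windows and equal numbers of the widest peaks.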

Additional observations from a re-analysis of the deposited data

Results flagged for a closer look

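The number of H3K4me1 peaks over the Hox clusters A, B and D, but not C, differed in direction between the sexes, and the differences were not tested. E1/E2-KO minus control came to 23 peaks in male and -5 in female liver over the 4 clusters, to 1 and -3 in cluster A, 14 and -1 in cluster B and 2 and -3 in cluster D, while cluster C went from 8 to 14 peaks in male and from 2 to 4 in female liver. For Hox genes with H3K4me1 at a start it came to 6 in male and -4 in female liver. Among the 65 homeobox genes outside the clusters, 45 had the mark at a start in control male and 56 in KO male liver. In female liver 32 of them had it in control and 28 in KO, so the direction differed between the sexes there as well. Over all genes the share with the mark went from 53.0% to 52.2% for male and from 46.1% to 42.3% for female liver. The KO female value rests on 3 livers. The low-coordinate border of the cluster C region lay 2.4 kb further out in KO male and 6.4 kb further in (-6.4 kb) in KO female than in control liver (50.8 and -50.4 kb with regions closer than 10 kb joined), and the high-coordinate border of the cluster D region 1.6 kb further out and 0.4 kb further in (-0.4 kb).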

How the results depend on the processing

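Of 118 values recomputed under the alternatives for 46 results, 102 stayed within 1.5-fold (counts) or 5 percentage points (coverage). Many of the 118 were H3K27me3 coverage values, which did not move under any setting, so the total says little about the peak counts. Most of the 16 values that moved were H3K27ac counts. All 38 Hox genes stayed covered and 0 differed in coverage under every limit and span tried, and cluster coverage stayed at 100% with clusters extended by 10 kb. With equal numbers of the widest H3K27ac peaks, the clusters held 4 in control female, 13 in KO male and 9 in KO female liver, with 12 (male) and 6 (female) found in E1/E2-KO alone and 1 in control alone in female liver. With the widest H3K4me1 peaks, KO male liver held 37. Extending the other list by 500 bp or merging peaks within 1 kb left 1 H3K27ac peak found in control alone in male and 2 in female liver, and extending it left 5 such H3K4me1 peaks in male liver (10 of 33 as called). Within 3 kb of a start, 3, 9, 25 and 19 Hox genes had H3K27ac in control male, control female, KO male and KO female liver. The cause of these changes was not tested. No paired analysis was possible because the livers of a group were combined before peaks were called and the lists carry no replicate, and no liver could be left out for the same reason. Depth is unknown, so absence from a list is a limit of detection. Long regions and closely spaced peaks depend on the callers' gap settings.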
